A study of Mus musculus with 9 samples.

Results

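The genes of fatty acid and triglyceride synthesis are described here in the livers of ethanol-fed mice with and without overexpression of Mettl3, the catalytic subunit of the nuclear m6A RNA methyltransferase. The group is a list of 35 named genes covering lipogenesis, desaturation, elongation, acyl activation, NADPH supply and glyceride assembly. All 35 had values in all libraries, among 16266 genes shared by the deposited tables. RNA sequencing was carried out on 9 mouse liver libraries in 3 groups of 3. Mettl3OE EtOH-fed livers had the genotype label Mettl3 overexpression and an ethanol diet. WT EtOH-fed livers had the genotype label WT and the same diet, and WT pair-fed livers had the genotype label WT and a pair-fed control diet. By the study's design all mice were wild-type animals that had received an AAV8 virus in the tail vein 3 weeks before feeding, carrying under the TBG promoter either Mettl3 with a 3×FLAG tag or the tag construct alone, both with a WPRE element. Feeding lasted 10 days and ended with 1 binge, of ethanol or, in controls, of maltose. The TBG promoter is active in hepatocytes, so that the transgene was aimed at these cells and not at the other cells of the liver. Sample titles name the genotype and the diet but not the virus, and the labels used here give no age, sex or strain. No Mettl3OE pair-fed group was analysed, so that the effect of Mettl3 without ethanol cannot be told apart from its effect under ethanol.

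Hepatocytes make fatty acids from cytosolic acetyl-CoA, which comes from citrate, acetate or ketone bodies. Acetyl-CoA carboxylase turns it into malonyl-CoA, fatty acid synthase builds palmitate with NADPH as reductant, and elongases and desaturases lengthen and unsaturate the product or the essential fatty acids of the diet. Acyl-CoA synthetases activate fatty acids, and a chain of acyltransferases and lipin phosphatases joins them to glycerol to form triglyceride. Transcription of many of these genes is driven in liver by the factors SREBP1c, encoded by Srebf1, and ChREBP, encoded by Mlxipl, and lipid build-up in hepatocytes is an early feature of alcohol-related liver disease.

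Promoter sequence was examined for the 29 members that matched a window in the RefSeq promoter table (build GRCm38.p6), each window running from 250 bases before to 50 bases after an annotated start. No window was used for Scd1, Scd2, Elovl3, Fads1, Dgat1 and Dgat2. The 4 sequences below are the 150 bases before the start of the members that rose furthest and fell furthest in ethanol-fed against pair-fed WT livers, among called members with a single window. They are shown because a pair of genes that moved up can be read beside a pair that moved down. All lie on the minus strand and are written 5′ to 3′, with capitals marking matches on either strand to CCAAT or to the GC box GGGCGG.
Thrsp, chr7:97417551-97417700: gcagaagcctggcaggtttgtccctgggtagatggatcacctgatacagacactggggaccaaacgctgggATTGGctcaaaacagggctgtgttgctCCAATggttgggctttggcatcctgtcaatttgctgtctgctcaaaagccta
Fasn, chr11:120824548-120824697: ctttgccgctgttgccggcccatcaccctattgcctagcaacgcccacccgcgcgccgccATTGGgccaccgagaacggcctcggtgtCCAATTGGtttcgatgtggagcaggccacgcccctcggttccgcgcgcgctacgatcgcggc
Fads2, chr19:10101504-10101653: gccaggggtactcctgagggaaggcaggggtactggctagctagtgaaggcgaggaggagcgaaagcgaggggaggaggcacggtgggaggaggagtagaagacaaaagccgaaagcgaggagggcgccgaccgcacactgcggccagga
Slc25a1, chr16:17928220-17928369: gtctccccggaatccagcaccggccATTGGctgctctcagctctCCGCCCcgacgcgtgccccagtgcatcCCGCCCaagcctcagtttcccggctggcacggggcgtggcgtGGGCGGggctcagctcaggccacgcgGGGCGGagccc
In these stretches Thrsp held 2 CCAAT matches, Fasn held 3, of which 2 overlap on opposite strands, Slc25a1 held 1 CCAAT match and 4 GC box matches, and Fads2 held neither. The start used for Fasn lies inside the gene span given with its values, which reaches further upstream in RefSeq, while those of the other 3 genes lie at the end of their spans.

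Across the full windows, searched on both strands, CCAAT was found in 17 of the 29 members (58.6%), against 41.1% of all 27025 genes with windows of this length. The GC box GGGCGG was found in 18 members (62.1%), against 38.2% of all genes. The E-box CACGTG was found in Elovl5, Lpin2, Lpin3 and Slc25a1 (13.8%), against 8.09% of all genes, and TATAAA was found in Acacb alone (3.45%), against 15.7%. The SREBP element TCACNCCAC was in 0 of the 29 members' windows and in 1.44% of all genes. These matches are letters in a window and were not tested as sites. CCAAT and the GC box each occurred in members that rose and in members that fell.

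Mettl3 itself was at 38.5, 24.98 and 33.3 FPKM in Mettl3OE EtOH-fed livers 1, 2 and 3, against 5.44, 4.86 and 3.78 FPKM in WT EtOH-fed livers and 3.97, 3.10 and 3.38 FPKM in WT pair-fed livers. FPKM is a read count scaled by transcript length and by the library's total, and libraries are given in the order 1, 2, 3 throughout. Mettl3OE livers lay far above both WT groups, with a log2 fold change of 2.54 over WT EtOH-fed livers (adjusted p = 0.0257, limma). That p-value missed the threshold without Mettl3OE liver 1 or 3 or WT EtOH-fed liver 2 or 3 (0.107 to 0.201), where the log2 fold change of Mettl3 was 2.40 to 2.56. Whole reads recovered from the deposited values came to between 34656256 and 38159563 per library. Pearson's r across genes on log2(FPKM + 1) was 0.972 to 0.992 between Mettl3OE livers, 0.972 to 0.986 between WT EtOH-fed livers and 0.991 to 0.994 between pair-fed livers. Replicates are numbered in the titles without naming animals, so p-values measure the spread between samples labelled as replicates. Hepatocyte markers summed to between 55143 and 62840 FPKM in Mettl3OE livers, 56696 and 68883 FPKM in WT EtOH-fed livers and 57341 and 65277 FPKM in pair-fed livers. These sums hide opposite movements, as Fgb had a positive log2 fold change in each comparison and the other 6 of 7 markers a negative one. Fgb means were 14455.5 FPKM in Mettl3OE, 10061 FPKM in WT EtOH-fed and 4153 FPKM in pair-fed livers. Ttr was called lower in Mettl3OE than in pair-fed livers (-0.70, adjusted p = 0.00254, limma).

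In WT livers ethanol feeding raised a larger share of the members than of all genes and lowered a share near that of all genes. By limma on log2(FPKM + 1), adjusted over all 10064 genes at a threshold of 0.05, 10 of the 33 members tested rose in ethanol-fed against pair-fed livers (30.3%), where 10.0% of all genes tested rose. A further 8 members fell (24.2%), where 26.0% of all genes fell. Together 18 members were called (54.5%), where 36.0% of all genes were. WT EtOH-fed livers lay wholly above pair-fed livers for 12 members (36.4%) and wholly below for 11 (33.3%), where 15.4% of all genes lay above and 37.2% below. The members' median log2 fold change was 0.10, against -0.14 for all genes. The members that rose were Thrsp, Fasn, Acaca, Lpin1, Aacs, Pgd, Scd1, Acacb, Elovl1 and Lpin3. Lpin3, also among the 12, was tested only through its level in WT EtOH-fed livers and could only come out higher. Those that fell were Elovl2, Fads2, Srebf1, Fads1, Slc25a1, Acss2, Agpat3 and Agpat2. In the fit of all 9 libraries Acacb, Fads2, Srebf1, Agpat2, Acss2 and Pgd were no longer called, and with no filter on low values Elovl1, Fads2, Agpat2, Acss2 and Aacs were not. Scaling the FPKM to a median ratio moved the median of all genes to -0.01 and the split of the members to 13 higher and 6 lower, and that of all genes to 1677 higher and 1851 lower, against 1009 and 2616 without it. The authors' deposited table, from the same reads, called 16 of the 35 members higher and 5 lower at q under 0.05, where it called 14.0% and 12.6% of its genes.

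With Mettl3 overexpression under ethanol no member passed the threshold, and the levels lay mostly below those of WT ethanol-fed livers. Of all 9706 genes tested 0.0103% were called, which is Mettl3 alone. At an unadjusted p under 0.05 by limma, 11 of the 33 members were lower (33.3%) and 0 were higher, where 4.66% of all genes were lower and 2.79% higher. The log2 fold change was negative for 30 members (90.9%), where it was negative for 58.9% of all genes. The members' median was -0.55, against -0.04 for all genes. Mettl3OE livers lay wholly below WT EtOH-fed livers for 9 members (27.3%) and wholly above for 0, where 6.62% of all genes lay below and 6.17% above. The 9 were Scd1, Scd2, Mid1ip1, Pnpla3, Gpam, Lpin1, Acsl4, Acsl5 and Acss2. Pnpla3, also among the 11, was tested only through its level in WT EtOH-fed livers and could only come out lower. The authors' deposited table called Mid1ip1, Pnpla3 and Acss2 lower at q under 0.05 and 0 members higher, where it called 0.51% of its genes lower and 0.103% higher, and limma-voom on the recovered reads called 0 members.

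Set against pair-fed WT livers, Mettl3OE ethanol-fed livers differed in 14 members, 13 of them lower, a share near that of all genes. Here 1 of 33 members was called higher, Lpin3 (3.03%), where 13.9% of all 10229 genes were higher. Lpin3 was tested only through its level in ethanol-fed livers and could only come out higher. A further 13 members were lower (39.4%), where 34.9% of all genes were lower: Scd2, Elovl2, Elovl5, Fads1, Fads2, Mid1ip1, Srebf1, Gpam, Agpat3, Lpin2, Acsl5, Acss2 and Slc25a1. With no filter on low values Elovl5 and Mid1ip1 were no longer called, and Elovl5 was not in the fit of the 6 libraries compared. Together 14 members were called (42.4%), where 48.8% of all genes were. Mettl3OE livers lay wholly above pair-fed livers for 2 members and wholly below for 15, where 19.3% of all genes lay above and 44.2% below. The median log2 fold change was -0.34 for the members and -0.18 for all genes. With median-ratio scaling the members split into 4 higher and 11 lower, all genes into 2238 higher and 2566 lower in place of 1424 and 3572, and the median of all genes was -0.02. This comparison shares its Mettl3OE and its pair-fed libraries with the other comparisons, so its values stand beside theirs and are no separate evidence. Ethanol over pair-fed and Mettl3OE over WT share the WT EtOH-fed libraries with opposite sign. A rise in the former and a fall in the latter are therefore not independent.

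**Figure D1:**
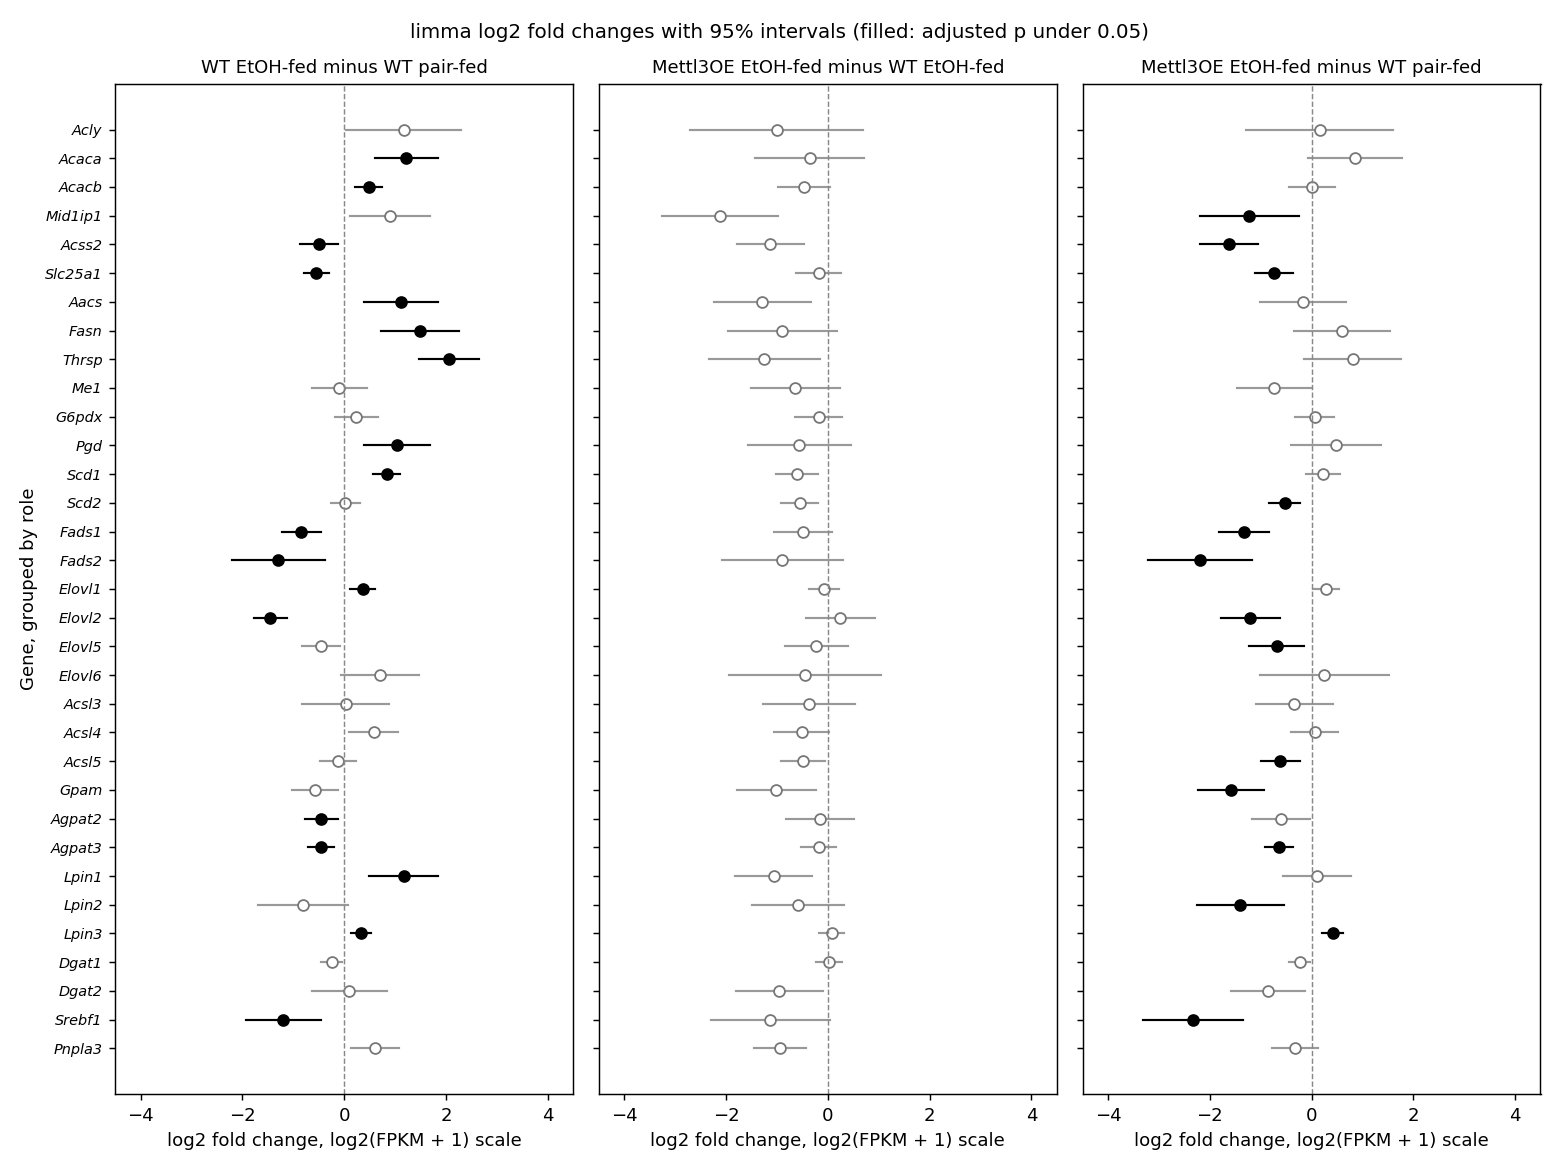
Log2 fold change of each of the 33 tested members on the log2(FPKM + 1) scale, grouped by role, for WT EtOH-fed over WT pair-fed (left), Mettl3OE EtOH-fed over WT EtOH-fed (middle) and Mettl3OE EtOH-fed over WT pair-fed livers (right), with bars for the 95% interval of limma and filled points for calls at adjusted p under 0.05. The rises with ethanol in WT livers are led by Thrsp at 2.06 and Fasn at 1.49, the falls by Elovl2 at -1.45 and Fads2 at -1.29. For Mettl3OE over WT under ethanol 30 of the 33 values lie below 0, where 58.9% of all genes tested do.

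The ethanol-fed livers of a group differed among themselves in the level of the pathway. In Mettl3OE liver 3 the members were highest of its group in 27 of 33 cases (81.8%), where it was highest for 56.4% of all genes tested, and the lowest was liver 1 for 20 members. In WT EtOH-fed liver 1 they were highest for 25 members (75.8%, all genes 60.0%), and liver 3 was lowest for 23 (69.7%, all genes 53.7%). The median coefficient of variation of the members was 36.3% in Mettl3OE livers, 31.5% in WT EtOH-fed livers and 11.2% in pair-fed livers, where the medians over all genes were 14.7% in Mettl3OE, 15.3% in WT EtOH-fed and 8.36% in pair-fed livers. Summed over all 35 members, FPKM came to 2249, 2948 and 3799 in Mettl3OE livers, 5006, 4911 and 3978 in WT EtOH-fed livers and 3302, 3523 and 3361 in pair-fed livers, of which Scd1 alone made up between 42.0% and 65.4%. Mettl3OE livers 1 and 2 had the lowest sums of the 9 libraries with Scd1 and without it. Without Scd1 the sums were 841, 1019.5 and 1865 FPKM in Mettl3OE livers, 2603, 1908 and 1385 FPKM in WT EtOH-fed livers and 1826, 2044 and 1861 FPKM in pair-fed livers, so that Mettl3OE liver 3 lay above WT EtOH-fed liver 3. Summed neutrophil markers were lowest of their group in Mettl3OE liver 3 and WT EtOH-fed liver 1, the livers highest in the pathway, at 73.2, 103 and 47.0 FPKM in Mettl3OE livers and 8.42, 64.9 and 70.8 FPKM in WT EtOH-fed livers, against 6.55, 6.35 and 10.4 FPKM in pair-fed livers, with Mpo and Elane not analysed here. Their part in the spread of the pathway was not tested.

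**Figure D2:**
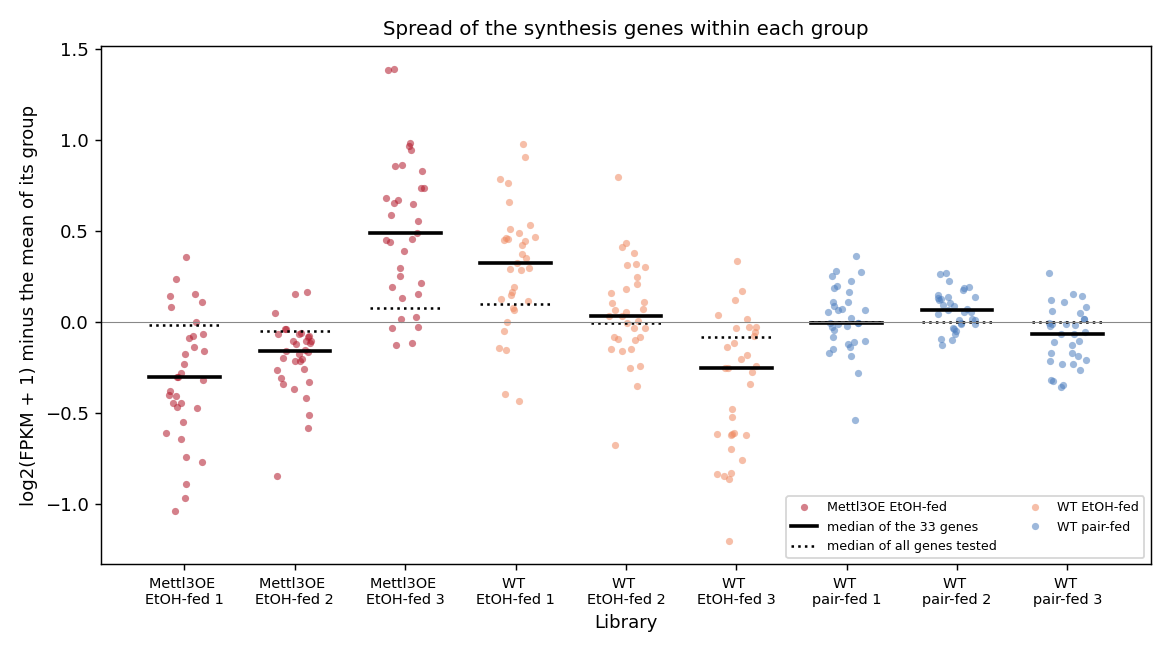
Deviation of log2(FPKM + 1) from the group mean for the 33 tested members (points) in each library, with their median (solid line) and that of all genes tested (dotted line), in Mettl3OE EtOH-fed, WT EtOH-fed and WT pair-fed livers. The members' median deviation is 0.49 in Mettl3OE liver 3, 0.33 in WT EtOH-fed liver 1 and within 0.07 of 0 in each pair-fed liver.

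Leaving out single ethanol-fed libraries moved the size of the members' median difference between Mettl3OE and WT EtOH-fed livers and not its sign. Single members did change sign. Those with a positive difference numbered 3 with all libraries and 6, 5 and 1 without Mettl3OE liver 1, 2 and 3. The members' median was -0.82 without Mettl3OE liver 3 and -0.37 without Mettl3OE liver 1, and -0.80 without WT EtOH-fed liver 3 and -0.38 without WT EtOH-fed liver 1. Without Mettl3OE liver 3, 24 of 33 members (72.7%) were lower at an unadjusted p under 0.05 and 11.8% of all genes were, against 7 members (21.2%) and 2.39% of all genes without Mettl3OE liver 1. Without Mettl3OE liver 2 there were also 7 such members, and 2.21% of all genes. No member passed the adjusted threshold in any of the 6 fits.

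In what follows, values in brackets beside an SE are log2 fold changes on the log2(FPKM + 1) scale and positions are those of GRCm38 (mm10). The carbon suppliers moved in both directions with ethanol. Slc25a1 (chr16:17925211-17928219), the mitochondrial carrier that exports citrate, was at 37.2, 42.0 and 59.7 FPKM in Mettl3OE livers, 55.9, 54.3 and 45.4 FPKM in WT EtOH-fed livers and 76.9, 78.8 and 72.3 FPKM in pair-fed livers. Every ethanol-fed liver of either genotype lay below every pair-fed liver. It fell with ethanol in WT livers (log2 fold change -0.55, SE 0.11, adjusted p = 0.00886, limma) and lay below pair-fed in Mettl3OE livers (-0.73, SE 0.17, adjusted p = 0.00693), and both calls held without any single library.

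Acss2 (chr2:155518043-155562743), which makes acetyl-CoA from acetate, the end product of ethanol oxidation, was at 8.38, 10.9 and 18.5 FPKM in Mettl3OE livers, 33.7, 22.9 and 27.0 FPKM in WT EtOH-fed livers and 39.1, 44.9 and 34.3 FPKM in pair-fed livers. The 3 groups did not overlap and stood in that order. The fall with ethanol in WT livers was at the edge of the test (-0.50, SE 0.16, adjusted p = 0.0467), and it was lost with median-ratio scaling (adjusted p = 0.109, range over the alternatives 0.00835 to 0.161) and without any single library other than WT EtOH-fed liver 1. Mettl3OE livers were called lower than pair-fed livers (-1.63, SE 0.25, adjusted p = 0.00165), and this call held without any single library. Against WT EtOH-fed livers the difference was -1.14 (95% interval -1.79 to -0.48, adjusted p = 0.641, limma), and the authors' deposited table gave -1.07 with q = 0.025. Exons of Acss2 overlap those of Gss on the opposite strand, and whether reads were counted by strand is not given in the sources used here.

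Acly (chr11:100476352-100528000), ATP citrate lyase, was at 10.95, 16.5 and 60.1 FPKM in Mettl3OE livers, 87.1, 56.9 and 19.4 FPKM in WT EtOH-fed livers and 24.0, 20.1 and 16.4 FPKM in pair-fed livers. The values within each ethanol-fed group were spread widely, all groups overlapped, and no comparison was called as fitted. The ethanol difference in WT livers was 1.17 (adjusted p = 0.0959, limma). It was called with the replicate number as a block and without WT EtOH-fed liver 3, and the authors' deposited table gave 1.57 with q = 0.000142. Aacs, which activates the ketone body acetoacetate in the cytosol, was at 5.13, 6.09 and 13.2 FPKM in Mettl3OE livers, 31.7, 19.3 and 12.5 FPKM in WT EtOH-fed livers and 10.6, 8.94 and 6.65 FPKM in pair-fed livers. It rose with ethanol in WT livers (1.12, SE 0.31, adjusted p = 0.0295), a call lost without WT EtOH-fed liver 2, pair-fed liver 2 or pair-fed liver 3 (highest adjusted p 0.106). Mettl3OE liver 3 overlapped the WT EtOH-fed range, and the difference to WT was -1.29 (unadjusted p = 0.0155, adjusted p = 0.641, limma).

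Both acetyl-CoA carboxylases, which form malonyl-CoA, rose with ethanol. Acaca (chr11:84129635-84401651), the cytosolic acetyl-CoA carboxylase of fatty acid synthesis, was at 18.8, 28.9 and 63.8 FPKM in Mettl3OE livers, 54.9, 50.2 and 27.2 FPKM in WT EtOH-fed livers and 21.6, 16.8 and 15.01 FPKM in pair-fed livers. All WT EtOH-fed livers lay above all pair-fed livers, while the Mettl3OE livers overlapped both. It rose with ethanol (1.22, SE 0.26, adjusted p = 0.0126). Acacb, the carboxylase at the mitochondrial surface whose malonyl-CoA restrains fatty acid oxidation, was at 5.70, 7.12 and 11.2 FPKM in Mettl3OE livers, 11.7, 11.1 and 10.4 FPKM in WT EtOH-fed livers and 8.70, 7.71 and 6.68 FPKM in pair-fed livers. It rose (0.48, SE 0.11, adjusted p = 0.0178), with WT EtOH-fed livers wholly above pair-fed livers. Both calls were lost without pair-fed liver 2 or pair-fed liver 3 (highest adjusted p 0.0564 for Acaca and 0.0727 for Acacb), and that of Acacb also in the fit of all 9 libraries (adjusted p = 0.0899, limma). Acaca also lay above pair-fed in Mettl3OE livers by 0.86, not called as fitted (adjusted p = 0.109) and called with median-ratio scaling (1.05, adjusted p = 0.0474, range over the alternatives 0.0376 to 0.306).

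Mid1ip1 (chrX:10717365-10719702), which promotes the polymerisation of acetyl-CoA carboxylase, had the lowest value for Mettl3OE over WT among the 33 members. It was at 7.08, 3.16 and 11.5 FPKM in Mettl3OE livers, 46.1, 39.7 and 17.1 FPKM in WT EtOH-fed livers and 17.3, 18.2 and 14.1 FPKM in pair-fed livers. The means were 7.24 ± 4.15 FPKM in Mettl3OE livers, 34.3 ± 15.2 FPKM in WT EtOH-fed livers and 16.5 ± 2.15 FPKM in pair-fed livers (SD, n = 3 each). Every Mettl3OE liver lay below every liver of the other groups. Against WT EtOH-fed livers the log2 fold change was -2.12, SE 0.48 (95% interval -3.26 to -0.99, unadjusted p = 0.00306, adjusted p = 0.606, limma), and in the authors' deposited table it was -2.16 with q = 0.000235. Against pair-fed livers it was lower (-1.22, SE 0.43, adjusted p = 0.0406). That call was lost with median-ratio scaling (adjusted p = 0.0567, range over the alternatives 0.0109 to 0.137) and without each library but Mettl3OE liver 3, and the value was -0.80 without Mettl3OE liver 2. With ethanol in WT livers Mid1ip1 was not called as fitted (0.90, adjusted p = 0.0704, limma). It was called higher with median-ratio scaling (1.05, adjusted p = 0.0345, range over the alternatives 0.00512 to 0.194). It was also called with the replicate number as a block and without WT EtOH-fed liver 3. The authors' deposited table gave 1.21 with q = 0.000151.

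Fatty acid synthase and its partner rose with ethanol. Fasn (chr11:120805958-120825166), the multienzyme that builds palmitate, was at 32.4, 43.9 and 94.0 FPKM in Mettl3OE livers, 121, 130.2 and 56.5 FPKM in WT EtOH-fed livers and 43.5, 33.3 and 26.1 FPKM in pair-fed livers. The means were 56.8 ± 32.8 FPKM in Mettl3OE livers, 103 ± 40.1 FPKM in WT EtOH-fed livers and 34.3 ± 8.70 FPKM in pair-fed livers (SD, n = 3 each). WT EtOH-fed livers lay wholly above pair-fed livers, and Mettl3OE livers overlapped both. It rose (1.49, SE 0.33, adjusted p = 0.0131), a call lost without pair-fed liver 2 or pair-fed liver 3 (highest adjusted p 0.0567). Mettl3OE over WT under ethanol was -0.90 (95% interval -1.96 to 0.17, adjusted p = 0.641, limma).

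Thrsp (chr7:97412933-97417550), a nuclear and cytosolic protein related to Mid1ip1 and induced by thyroid hormone and carbohydrate, rose furthest of the members. It was at 95.1, 168 and 347 FPKM in Mettl3OE livers, 579.8, 433 and 304 FPKM in WT EtOH-fed livers and 118, 110.3 and 78.4 FPKM in pair-fed livers. The means were 203 ± 129.5 FPKM in Mettl3OE livers, 439 ± 138 FPKM in WT EtOH-fed livers and 102 ± 21.0 FPKM in pair-fed livers (SD, n = 3 each). The lowest WT EtOH-fed liver stood above the highest pair-fed liver, and Mettl3OE liver 1 was within the pair-fed range. The rise (2.06, SE 0.25, adjusted p = 0.00204) held without any single library. Between Mettl3OE and WT under ethanol the difference was -1.26 (95% interval -2.35 to -0.16, unadjusted p = 0.0297, adjusted p = 0.641, limma), with Mettl3OE liver 3 above WT EtOH-fed liver 3.

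Among the enzymes that supply NADPH, Pgd, the 6-phosphogluconate dehydrogenase of the pentose phosphate pathway, was at 11.6, 18.9 and 36.6 FPKM in Mettl3OE livers, 41.8, 33.8 and 19.3 FPKM in WT EtOH-fed livers and 16.4, 15.6 and 11.2 FPKM in pair-fed livers. It rose with ethanol (1.03, SE 0.28, adjusted p = 0.0252), with no overlap of the WT groups. The call was lost without WT EtOH-fed liver 2, pair-fed liver 2 or pair-fed liver 3 (highest adjusted p 0.0935) and in the fit of all 9 libraries. Me1, the cytosolic malic enzyme, and G6pdx, glucose-6-phosphate dehydrogenase, were not called as fitted in any comparison and overlapped in all. Me1 was called lower in Mettl3OE than in pair-fed livers without Mettl3OE liver 3. G6pdx was called higher with ethanol in WT livers without WT EtOH-fed liver 1. Me1 was between 32.1 and 108 FPKM over the 9 libraries and G6pdx between 2.70 and 5.14 FPKM, and exons of G6pdx overlap Ikbkg on the opposite strand. The sign of the Me1 difference between WT EtOH-fed and pair-fed livers turned with median-ratio scaling (-0.10 without it and 0.06 with it).

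Among the desaturases Scd1 rose with ethanol and Fads1 and Fads2 fell. Scd1 (chr19:44394450-44407709), which makes oleate and palmitoleate from saturated acyl-CoA, was the most abundant member at 1408, 1928 and 1934 FPKM in Mettl3OE livers, 2403, 3003 and 2592 FPKM in WT EtOH-fed livers and 1477, 1479 and 1499.5 FPKM in pair-fed livers. WT EtOH-fed livers lay above both other groups without overlap. Its means were 1757 ± 302 FPKM in Mettl3OE livers, 2666 ± 307 FPKM in WT EtOH-fed livers and 1485 ± 12.7 FPKM in pair-fed livers (SD, n = 3 each). It rose with ethanol (0.84, SE 0.11, adjusted p = 0.00263), a call that held without any single library. Mettl3OE over WT under ethanol was -0.61, SE 0.18 (95% interval -1.03 to -0.19, unadjusted p = 0.0104, adjusted p = 0.641, limma). Against pair-fed livers Mettl3OE livers differed by 0.23, not called as fitted (adjusted p = 0.22) and called with median-ratio scaling (0.43, adjusted p = 0.0431, range over the alternatives 0.0431 to 0.497).

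Scd2 (chr19:44293676-44306864), a neighbouring isoform that is low in adult hepatocytes, was at 1.42, 1.09 and 1.80 FPKM in Mettl3OE livers, 2.19, 3.10 and 2.41 FPKM in WT EtOH-fed livers and 2.65, 2.64 and 2.19 FPKM in pair-fed livers. Mettl3OE livers lay wholly below both WT groups, which overlapped. It was lower than in pair-fed livers (-0.53, SE 0.14, adjusted p = 0.0126) and differed from WT EtOH-fed livers by -0.55 (unadjusted p = 0.00873, adjusted p = 0.641, limma). Scd1 and Scd2 are close copies, so that how reads were divided between them, and above all the low value of Scd2, is uncertain.

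Fads1 and Fads2, the desaturases that turn the essential fatty acids into arachidonate and other long polyunsaturated fatty acids, fell with ethanol. Fads1 (chr19:10182877-10196874) was at 51.8, 57.5 and 88.4 FPKM in Mettl3OE livers, 115, 84.0 and 75.2 FPKM in WT EtOH-fed livers and 149, 178 and 161 FPKM in pair-fed livers. Fads2 (chr19:10062765-10101503) was at 40.1, 47.5 and 108 FPKM in Mettl3OE livers, 219, 86.4 and 71.7 FPKM in WT EtOH-fed livers and 224, 319 and 285 FPKM in pair-fed livers. In both genes every ethanol-fed liver lay below every pair-fed liver. Fads1 fell in WT livers (-0.84, SE 0.16, adjusted p = 0.00872), a call that held without any single library, and was lower in Mettl3OE than in pair-fed livers (-1.33, SE 0.21, adjusted p = 0.00191). Fads2 fell in WT livers (-1.29, SE 0.39, adjusted p = 0.0372) and was lower in Mettl3OE than in pair-fed livers (-2.19, SE 0.45, adjusted p = 0.00481). The WT call for Fads2 was lost without any single library other than WT EtOH-fed liver 1 (highest adjusted p 0.132), and the Mettl3OE calls of both genes held without any single library. Fads2 in WT EtOH-fed liver 1 nearly reached the lowest pair-fed liver, at 219 against 224 FPKM.

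**Figure D3:**
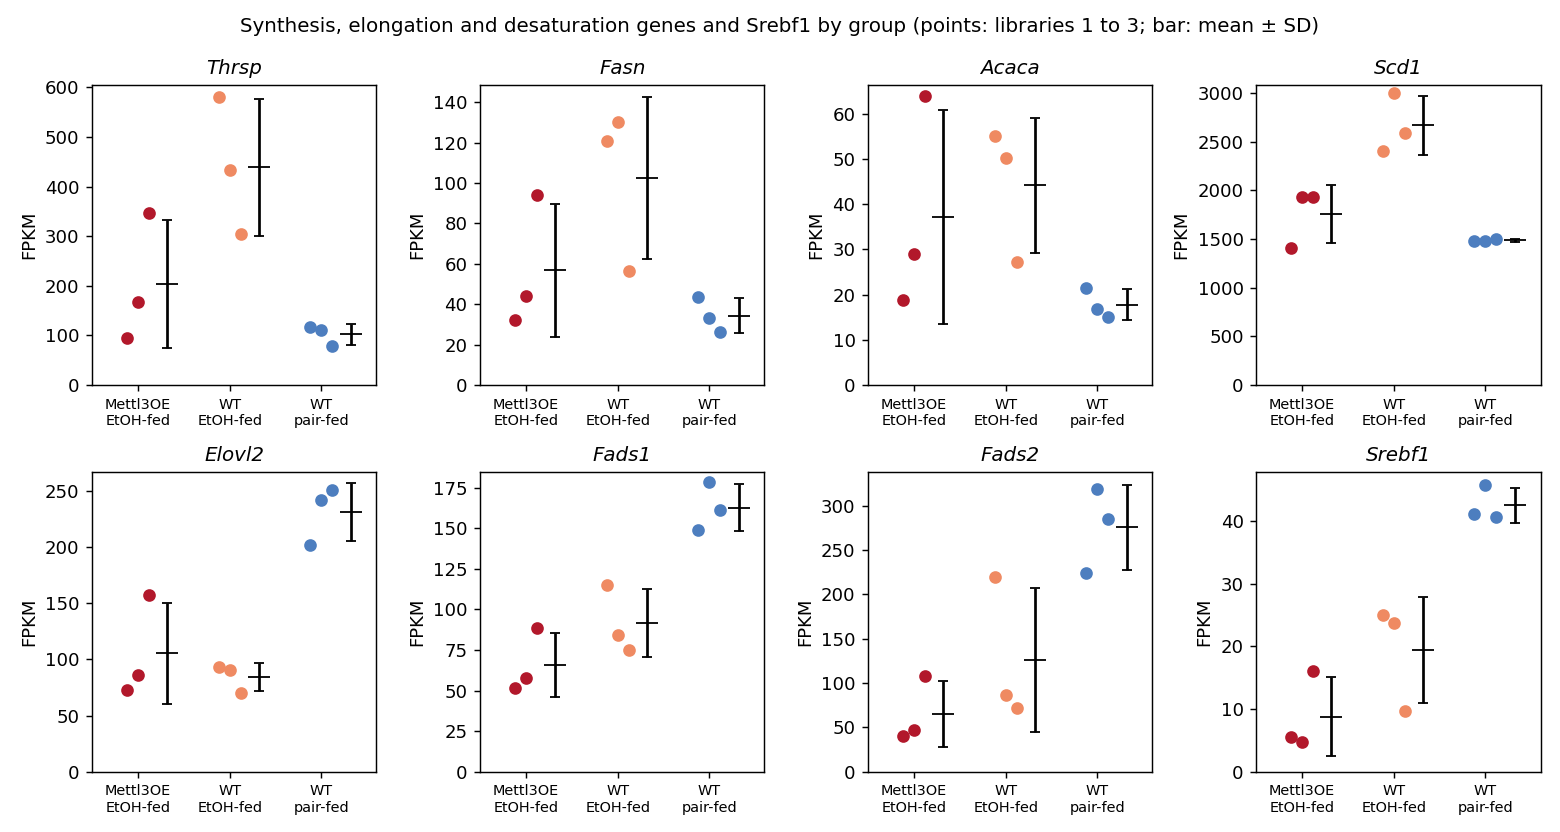
FPKM of 8 members in each library, a panel per gene (Thrsp, Fasn, Acaca, Scd1, Elovl2, Fads1, Fads2, Srebf1), with Mettl3OE EtOH-fed, WT EtOH-fed and WT pair-fed livers from left to right, points for libraries and bars for the mean and SD of 3. Scd1 sits between 2403 and 3003 FPKM in WT EtOH-fed livers, above all other livers, while Fads1 is below the pair-fed values in all 6 ethanol-fed livers.

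Of the 4 elongases tested, 1 rose with ethanol in WT livers (all genes 10.0%) and 1 fell (all genes 26.0%). Elovl2 (chr13:41182382-41220403), which lengthens polyunsaturated acyl chains on the way to docosahexaenoate, was at 73.0, 86.2 and 157 FPKM in Mettl3OE livers, 92.9, 90.2 and 70.2 FPKM in WT EtOH-fed livers and 202, 242 and 251 FPKM in pair-fed livers. The ethanol-fed livers of both genotypes lay below the pair-fed livers. It fell in WT livers (-1.45, SE 0.14, adjusted p = 0.00106) and was lower in Mettl3OE than in pair-fed livers (-1.20, SE 0.26, adjusted p = 0.00534), and both calls held without any single library.

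Elovl5, which also lengthens polyunsaturated chains, was at 95.3, 121 and 191 FPKM in Mettl3OE livers, 172, 165 and 126 FPKM in WT EtOH-fed livers and 218, 237 and 179 FPKM in pair-fed livers. WT EtOH-fed livers lay below pair-fed livers without a call as fitted (-0.45, adjusted p = 0.057, limma). That difference was called with the replicate number as a block and without WT EtOH-fed liver 1. Mettl3OE livers were called lower than pair-fed livers (-0.68, SE 0.24, adjusted p = 0.041) although liver 3 lay within the pair-fed range. That call was lost with median-ratio scaling (adjusted p = 0.0852, range over the alternatives 0.00244 to 0.143) and without each library but Mettl3OE liver 3. Elovl1, an elongase of saturated very long chains, was at 7.50, 5.88 and 6.85 FPKM in Mettl3OE livers, 7.88, 7.09 and 6.52 FPKM in WT EtOH-fed livers and 5.81, 4.92 and 5.28 FPKM in pair-fed livers. It rose with ethanol in WT livers (0.36, SE 0.11, adjusted p = 0.0345), and the ethanol-fed livers of both genotypes lay above the pair-fed livers. The call was lost without WT EtOH-fed liver 2 or any pair-fed liver (highest adjusted p 0.144). Over pair-fed livers Mettl3OE livers differed by 0.29 (adjusted p = 0.061), called with median-ratio scaling at 0.46 (adjusted p = 0.00594, range over the alternatives 0.00594 to 0.203).

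Elovl6, which extends palmitate to stearate, was at 12.7, 21.2 and 72.3 FPKM in Mettl3OE livers, 50.3, 49.97 and 20.5 FPKM in WT EtOH-fed livers and 25.8, 22.4 and 19.9 FPKM in pair-fed livers, with overlap and no call as fitted in any comparison. The ethanol difference in WT livers was 0.70 (adjusted p = 0.13, limma). It was called without WT EtOH-fed liver 3, and the authors' deposited table gave 0.99 with q = 0.00187. Elovl3 was under the FPKM minimum, with 1, 2 and 19 recovered reads in Mettl3OE livers, 31, 14 and 4 in WT EtOH-fed livers and 57, 99 and 20 in pair-fed livers. Mettl3OE livers lay below pair-fed livers, and Elovl3 was called lower there when no minimum was set.

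Acyl activation showed no call with ethanol in WT livers as fitted, in 3 tested members, where 36.0% of all genes were called. Acsl5, a long-chain acyl-CoA synthetase of mitochondria and the endoplasmic reticulum, was at 72.2, 81.0 and 105 FPKM in Mettl3OE livers, 147, 107 and 108 FPKM in WT EtOH-fed livers and 123, 149 and 121 FPKM in pair-fed livers. Mettl3OE livers lay wholly below both WT groups. The call against pair-fed livers (-0.61, SE 0.17, adjusted p = 0.0172) was lost without Mettl3OE liver 1, Mettl3OE liver 2 or pair-fed liver 2 (highest adjusted p 0.0685), and the difference to WT EtOH-fed livers was -0.49 (unadjusted p = 0.0343, adjusted p = 0.641, limma). The sign of its ethanol difference in WT livers turned with median-ratio scaling (-0.12 without it, 0.04 with it), and its exons overlap those of Zdhhc6 on the opposite strand. Acsl4, which prefers arachidonate, was at 8.88, 6.31 and 7.20 FPKM in Mettl3OE livers, 15.8, 9.17 and 9.16 FPKM in WT EtOH-fed livers and 6.32, 7.57 and 7.35 FPKM in pair-fed livers. WT EtOH-fed livers lay above both other groups, with no call against pair-fed livers as fitted (0.58, adjusted p = 0.0607, limma). It was called higher with median-ratio scaling (0.72, adjusted p = 0.0187, range over the alternatives 0.0187 to 0.166) and without WT EtOH-fed liver 1. Acsl3 was at 5.76, 7.33 and 6.28 FPKM in Mettl3OE livers, 9.05, 15.7 and 4.27 FPKM in WT EtOH-fed livers and 7.71, 9.23 and 8.38 FPKM in pair-fed livers, uncalled as fitted in all 3 comparisons, with Mettl3OE livers below pair-fed livers, a difference called in the fit of the 6 libraries compared. Exons of Acsl3 overlap those of Utp14b on the same strand. Utp14b means were 1.79 FPKM in Mettl3OE, 2.74 FPKM in WT EtOH-fed and 1.03 FPKM in pair-fed livers.

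Glyceride assembly changed by step. Gpam (chr19:55067635-55127319), the mitochondrial acyltransferase that opens the pathway from glycerol phosphate, was at 7.57, 5.72 and 14.2 FPKM in Mettl3OE livers, 25.3, 17.0 and 14.2 FPKM in WT EtOH-fed livers and 25.6, 29.5 and 28.0 FPKM in pair-fed livers. The groups stood in that order with no overlap, though Mettl3OE liver 3 and WT EtOH-fed liver 3 were nearly level. Mettl3OE livers were lower than pair-fed livers (-1.58, SE 0.29, adjusted p = 0.0031), which held without any single library. Neither the WT ethanol difference (-0.57, adjusted p = 0.0551) nor that between Mettl3OE and WT under ethanol (-1.01, adjusted p = 0.641, limma) was called as fitted. The WT ethanol difference was called without WT EtOH-fed liver 1.

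Agpat2 and Agpat3 add the next acyl chain to make phosphatidate. Agpat2 was at 43.2, 42.8 and 85.4 FPKM in Mettl3OE livers, 74.0, 56.8 and 52.1 FPKM in WT EtOH-fed livers and 89.0, 80.5 and 78.6 FPKM in pair-fed livers. Agpat3 was at 16.8, 16.4 and 20.5 FPKM in Mettl3OE livers, 23.4, 18.1 and 19.9 FPKM in WT EtOH-fed livers and 27.8, 29.2 and 28.0 FPKM in pair-fed livers. Both fell with ethanol in WT livers, where no ethanol-fed liver reached the pair-fed range, with values of -0.45, SE 0.14 for Agpat2 (adjusted p = 0.0426) and -0.46, SE 0.11 for Agpat3 (adjusted p = 0.019). The 2 calls held only without WT EtOH-fed liver 1 and were lost without each other library (highest adjusted p 0.134 and 0.0822), and that of Agpat2 also with median-ratio scaling (adjusted p = 0.0731, range over the alternatives 0.00312 to 0.189). Agpat3 was lower in Mettl3OE than in pair-fed livers (-0.64, SE 0.12, adjusted p = 0.00336), and this call held without any single library. Exons of Agpat2 overlap those of Egfl7, an endothelial gene, on the opposite strand.

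The lipins, which convert phosphatidate to diglyceride, each moved in their own way. Lpin1 (chr12:16535669-16653903) was at 20.1, 11.8 and 15.7 FPKM in Mettl3OE livers, 48.1, 20.6 and 37.9 FPKM in WT EtOH-fed livers and 12.8, 17.5 and 13.3 FPKM in pair-fed livers, so that WT EtOH-fed livers lay above both other groups. It rose with ethanol in WT livers (1.17, SE 0.29, adjusted p = 0.0196), a call lost without WT EtOH-fed liver 3, pair-fed liver 1 or pair-fed liver 3 (highest adjusted p 0.0738). Mettl3OE over WT under ethanol was -1.07 (95% interval -1.83 to -0.30, unadjusted p = 0.0129, adjusted p = 0.641, limma), and the value against pair-fed livers was 0.10.

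Lpin2, the main lipin of liver in mice, was at 3.24, 4.48 and 6.69 FPKM in Mettl3OE livers, 13.6, 6.99 and 4.23 FPKM in WT EtOH-fed livers and 9.25, 16.9 and 16.9 FPKM in pair-fed livers. Mettl3OE livers lay wholly below pair-fed livers and were called lower (-1.40, SE 0.38, adjusted p = 0.0151), a call lost without Mettl3OE liver 1, pair-fed liver 2 or pair-fed liver 3 (highest adjusted p 0.0585). Lpin3, low in liver, was at 1.45, 1.398 and 1.12 FPKM in Mettl3OE livers, 1.12, 1.25 and 1.22 FPKM in WT EtOH-fed livers and 0.817, 0.691 and 0.709 FPKM in pair-fed livers. All ethanol-fed livers of both genotypes lay above the pair-fed livers. It rose in WT livers (0.34, SE 0.08, adjusted p = 0.0195) and was higher in Mettl3OE than in pair-fed livers (0.41, SE 0.09, adjusted p = 0.00586). The Mettl3OE call held without any single library, while the WT call was lost without pair-fed liver 2 or 3 (highest adjusted p 0.0954) and the gene fell under the FPKM minimum without any WT EtOH-fed liver. As Lpin3 passed that minimum only in ethanol-fed livers, it could be called only where they were higher.

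Dgat2, which performs the last step of triglyceride synthesis on newly made fatty acids, was at 101, 95.9 and 156 FPKM in Mettl3OE livers, 380.2, 201 and 146 FPKM in WT EtOH-fed livers and 185, 210.5 and 231 FPKM in pair-fed livers. Mettl3OE livers lay below pair-fed livers, without a call as fitted (-0.85, adjusted p = 0.0521) and with one by limma-voom and in the fit of the 6 libraries compared (range over the alternatives 0.0107 to 0.155). Dgat1, an enzyme of unrelated sequence that performs the same step, was at 4.60, 4.61 and 5.42 FPKM in Mettl3OE livers, 4.79, 4.68 and 4.95 FPKM in WT EtOH-fed livers and 5.75, 5.66 and 6.30 FPKM in pair-fed livers. Its ethanol-fed livers of both genotypes lay below the pair-fed livers with no call as fitted (-0.23 for Mettl3OE and -0.25 for WT, adjusted p = 0.061 and 0.0663, limma). Dgat1 was called lower in Mettl3OE than in pair-fed livers without Mettl3OE liver 3. Mogat1, which acylates monoglyceride, was under the FPKM minimum, with 2, 9 and 18 recovered reads in Mettl3OE livers, 12, 22 and 20 in WT EtOH-fed livers and 6, 10 and 4 in pair-fed livers. WT EtOH-fed livers lay above pair-fed livers, and Mogat1 was called higher there when no minimum was set.

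Srebf1 and Pnpla3 close the list. Srebf1 (chr11:60199084-60224186), which encodes the lipogenic transcription factor SREBP1, was at 5.54, 4.77 and 16.1 FPKM in Mettl3OE livers, 25, 23.7 and 9.66 FPKM in WT EtOH-fed livers and 41.1, 45.7 and 40.7 FPKM in pair-fed livers. The means were 8.81 ± 6.34 FPKM in Mettl3OE livers, 19.5 ± 8.502 FPKM in WT EtOH-fed livers and 42.5 ± 2.80 FPKM in pair-fed livers (SD, n = 3 each). Every ethanol-fed liver lay below every pair-fed liver, and its transcript fell while Fasn, Acaca and Scd1 rose. The fall was -1.19, SE 0.32 in WT livers (adjusted p = 0.0253), lost without any 1 of the pair-fed livers (highest adjusted p 0.0949) and in the fit of all 9 libraries, and -0.78 without WT EtOH-fed liver 3. In Mettl3OE against pair-fed livers it was -2.33, SE 0.44 (adjusted p = 0.00332), which held without any single library. The difference between Mettl3OE and WT under ethanol was -1.13 (95% interval -2.30 to 0.04, adjusted p = 0.641, limma).

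Pnpla3, a lipid droplet hydrolase and a target of SREBP1c, was at 0.753, 0.667 and 1.23 FPKM in Mettl3OE livers, 1.66, 3.46 and 2.90 FPKM in WT EtOH-fed livers and 1.49, 1.60 and 0.996 FPKM in pair-fed livers. Mettl3OE livers lay wholly below WT EtOH-fed livers, which lay above pair-fed livers. In the fit of the ethanol-fed groups Pnpla3 passed the FPKM minimum only through the WT EtOH-fed livers, so it could only come out lower. The Mettl3OE difference under ethanol was -0.94, SE 0.21 (95% interval -1.45 to -0.44, unadjusted p = 0.00303, adjusted p = 0.606, limma), and the authors' deposited table gave -1.56 with q = 0.00333. The ethanol difference in WT livers was just short of a call (0.61, adjusted p = 0.0502) and was called with median-ratio scaling (0.72, adjusted p = 0.0455, range over the alternatives 0.00365 to 0.165).

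**Figure D4:**
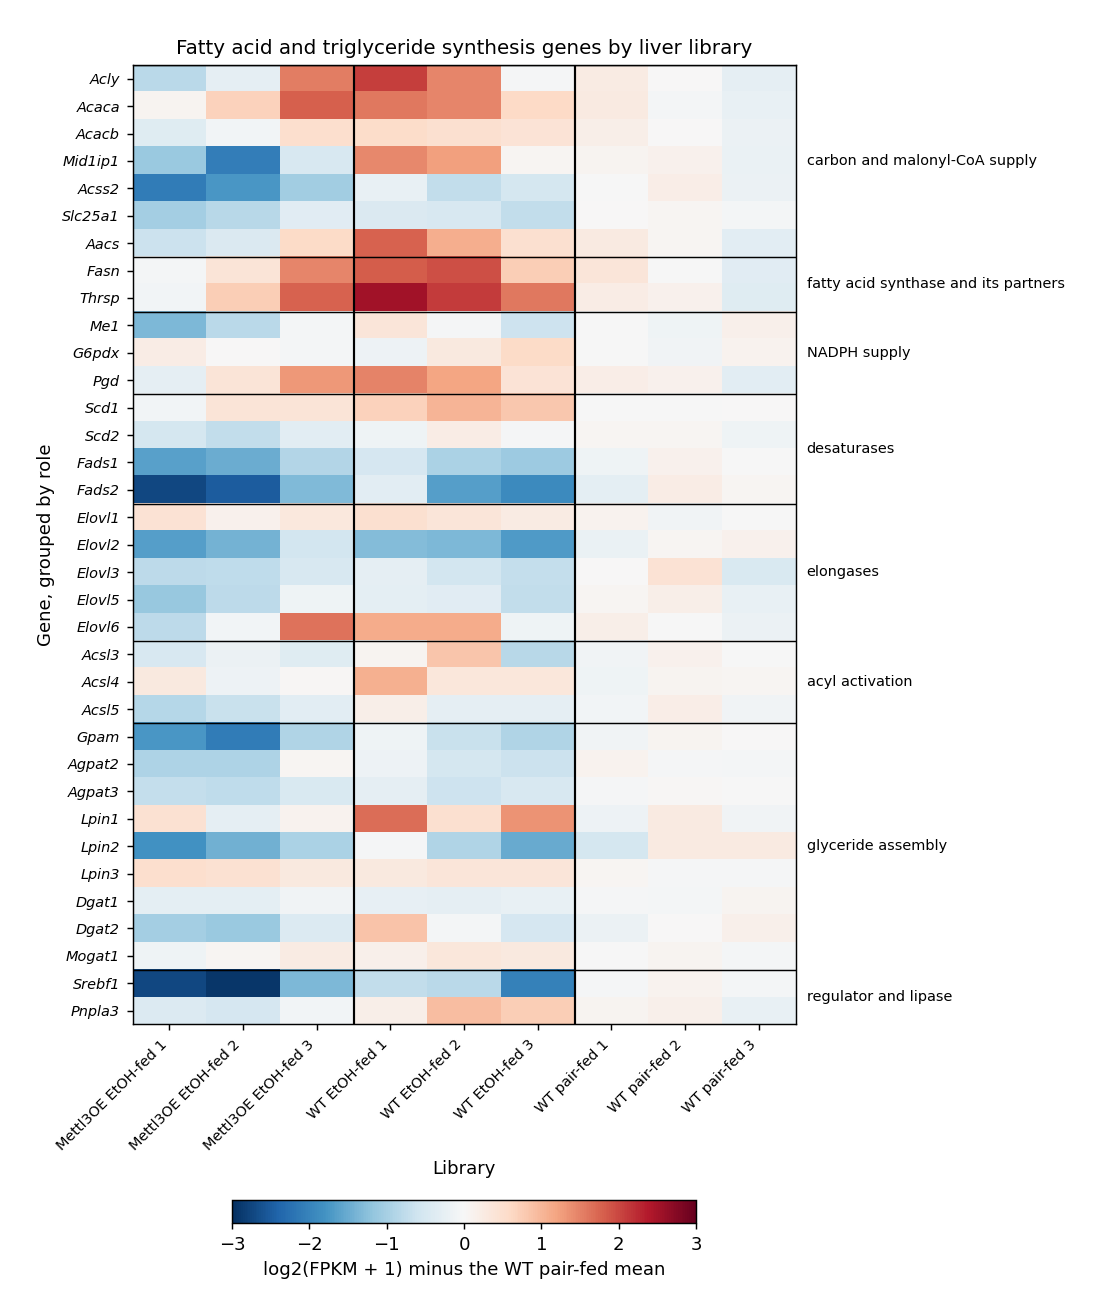
Level of each of the 35 members in each of the 9 libraries, coloured by log2(FPKM + 1) minus the member's WT pair-fed mean (red higher, blue lower), grouped by role, with Mettl3OE EtOH-fed, WT EtOH-fed and WT pair-fed livers from left to right. Thrsp, Fasn and Scd1 are red in the 3 WT EtOH-fed livers, Fads1, Fads2, Elovl2 and Srebf1 are blue in all 6 ethanol-fed livers, and Mettl3OE liver 3 is the highest of its group for 27 of the 33 tested members.

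Of 67 other genes of the pathway, listed by role, 63 were in both tables and 53 were tested. With ethanol in WT livers 6 rose (11.3%, all genes 10.0%) and 20 fell (37.7%, all genes 26.0%), with a median log2 fold change of -0.27. The 3 largest rises were in Cidec (1.88, adjusted p = 0.0207), a lipid droplet protein, Tkfc (1.47, adjusted p = 0.0254), which phosphorylates glyceraldehyde and dihydroxyacetone, and Insig2 (1.14, adjusted p = 0.00743), which holds SREBPs in the endoplasmic reticulum. Cidec was at 1.11, 2.85 and 0.985 FPKM in Mettl3OE livers, 10.8, 4.51 and 1.87 FPKM in WT EtOH-fed livers and 0.775, 0.817 and 0.168 FPKM in pair-fed livers, so that it was tested only through its level in WT EtOH-fed livers and could only come out higher. The calls of Cidec and Tkfc were lost without pair-fed liver 2 or pair-fed liver 3, that of Cidec also without pair-fed liver 1, and that of Tkfc also without WT EtOH-fed liver 1 or 2. The 3 largest falls were in Acsl1 (-2.04, adjusted p = 0.00125), the main long-chain acyl-CoA synthetase of liver, Insig1 (-1.99, adjusted p = 0.00122), a second SREBP anchor and an SREBP target, and Acot12 (-1.42, adjusted p = 0.00247), a cytosolic acetyl-CoA hydrolase. In Mettl3OE against pair-fed livers 1 of the 53 rose, Mlx (0.96, adjusted p = 0.00102), the partner of ChREBP (1.89%, all genes 13.9%), and 28 fell (52.8%, all genes 34.9%), led by Acsl1 (-2.77, adjusted p = 0.000303), Insig1 (-2.09, adjusted p = 0.00118) and Acot12 (-1.997, adjusted p = 0.000531). Mlxipl, which encodes ChREBP itself, was among the 28 (-1.38, adjusted p = 0.00274, limma). With ethanol in WT livers Mlxipl was not called as fitted (-0.56, adjusted p = 0.0742, limma) and was called lower without WT EtOH-fed liver 1. Between Mettl3OE and WT under ethanol 0 of the 53 were called, and their median was -0.23.

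Markers of other liver cells moved with ethanol too. Of 7 Kupffer cell markers 6 fell in WT livers (85.7%, all genes 26.0%), with sums of 74.6 to 154 FPKM in Mettl3OE livers, 93.1 to 143 FPKM in WT EtOH-fed livers and 180 to 210.4 FPKM in pair-fed livers. Of 7 sinusoidal endothelial markers 6 fell (85.7%, all genes 26.0%) and Lyve1 rose, and their sums were 95.5 to 115 FPKM in Mettl3OE livers, 88.6 to 100.5 FPKM in WT EtOH-fed livers and 127 to 144 FPKM in pair-fed livers. Adipocyte markers summed to 1.08 to 2.98 FPKM in Mettl3OE livers, 2.08 to 11.1 FPKM in WT EtOH-fed livers and 0.308 to 1.92 FPKM in pair-fed livers, most of it Cidec except in pair-fed liver 1, where Cfd was higher, with the adipocyte gene Plin1 near 0 and Adipoq, Lep and Retn not analysed here. Stellate cell markers fell for 3 of 7 (42.9%, all genes 26.0%), and T, NK and B cell markers summed to 1.30 to 2.28 FPKM in Mettl3OE livers, 1.404 to 2.27 FPKM in WT EtOH-fed livers and 4.79 to 5.34 FPKM in pair-fed livers. The part of these cells in the members' values was not tested. In bulk RNA fewer cells of a type and less RNA per cell cannot be told apart.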

How the data were processed

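The submitters' processing notes name fastp, HISAT2, HTSeq and the mouse build mm10 (versions and strand use are not given in the sources used here). The authors deposited 2 tables of 16842 and 16470 genes, 16266 of them in both, with FPKM per library. Per the file headers each has signal columns, the mean of size-factor-scaled counts over all and over each group's libraries, as well as a linear ratio and its log2, and DESeq2 p-value and q-value columns, all made by the authors for WT EtOH-fed against WT pair-fed and for Mettl3OE against WT under ethanol. The tables were joined by gene symbol. The WT EtOH-fed columns occur in both and differed by a relative 1.08e-06 at most, and 0 columns of other samples were present. Whole reads recovered from FPKM and signal (100% of genes within a tolerance of 0.05) gave depths of 34656256 to 38159563 per library.

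Tests used limma 3.58.1 in R 4.3.3 (lmFit, eBayes with trend and robust) on log2(FPKM + 1), keeping genes that reached an FPKM of 1 in 3 or more libraries. P-values were adjusted by Benjamini-Hochberg over all genes, with a threshold of 0.05. Fold changes on this scale understate the change of low genes. WT EtOH-fed over pair-fed and Mettl3OE over WT under ethanol used their own 6 libraries, and Mettl3OE over pair-fed a fit of all 9. Alternatives were median-ratio scaling, a pseudocount of 0.1, no filter, the other set of libraries, a replicate block, limma-voom on recovered reads and leaving out each library. Tables and figures were made with Python 3.11.15, numpy 2.4.6, pandas 2.3.3 and matplotlib 3.10.9. Gene positions are those of GRCm38, and promoters come from RefSeq (GRCm38.p6).

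Every member called in any comparison is named with its values, as are uncalled members whose groups did not overlap, and from the other pathway genes up to 3 higher and 3 lower calls with the largest change per comparison. Per-library values of Acly and Elovl6 and the fold changes of Mlxipl, outside this rule, were added after they were seen. The members and lists were chosen with earlier results of these data known.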

Additional observations from a re-analysis of the deposited data

How the results depend on the processing

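With ethanol in WT livers the members called higher and lower numbered 10 and 8. The count of lower members was 5 with no filter on low values and 4 in the fit of all 9 libraries, and the cause was not tested. Leaving out single libraries gave 2 to 12 higher members, 3 to 11 lower members and 1538 to 4743 called genes in all (3625 with all libraries), and the lower ends came with fewer samples. The calls of Scd1, Elovl2, Fads1, Thrsp and Slc25a1 were kept in all 6 omissions. Between Mettl3OE and WT under ethanol 0 members were called under every alternative run, and the 1 gene called, Mettl3, became 0 genes with no filter, 0 with a replicate block, 3 in the fit of all 9 libraries and 0 to 2 without single libraries. For Mettl3OE over pair-fed livers the members called higher went to 4 with median-ratio scaling, and without single libraries the counts were 1 to 4 higher, 9 to 17 lower and 3342 to 5678 genes in all (4996 with all libraries). A pseudocount of 0.1 and limma-voom on recovered reads kept all 18 and all 14 member calls of the comparisons with pair-fed livers. No called value changed sign in any alternative.

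The replicate numbers did not pair the samples, with same-number correlations of deviations of -0.41 to 0.39 for Mettl3OE and WT EtOH-fed, -0.05 to 0.09 for Mettl3OE and pair-fed, and -0.19 to 0.11 for WT EtOH-fed and pair-fed livers. With the replicate number as a replicate block 15 of the 18 ethanol calls remained, without Elovl1, Fads2 and Acss2, and 11 members were higher and 7 lower. Of the 14 calls for Mettl3OE over pair-fed livers 12 remained, without Elovl5 and Mid1ip1. The planned quasi-likelihood count test was not run, as the deposited unit is FPKM, and limma-voom stands in its place. Depth limits Elovl3 and Mogat1, with at most 99 and 22 reads in a library.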
